A study of Mus musculus with 22 samples.

Results

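Type I interferon response genes were examined in 22 primary mouse tumours of the cheek lining. The set holds 34 genes that were matched by symbol to a mouse gene ID. All 34 were found among the 56748 gene IDs of the count tables, and all 34 passed the filter on low counts, so each was tested. All are known targets of interferon. RNA was sequenced from tumours started by injecting 4-hydroxytamoxifen into the buccal mucosa, and the stated purpose was to study KEAP1 and NRF2 in radioresistance and in the immune surroundings of such tumours. All tumours, controls included, carried Krt5CreER-T2, which drives a tamoxifen-inducible Cre recombinase from the promoter of basal keratinocytes. All were also Trp53fl/fl and had 2 copies of a Rosa26 allele that switches on PIK3CA with the activating change H1047R. The Keap1 fl/fl groups carried floxed Keap1 in addition, and the BAP groups received benzo[a]pyrene, a carcinogen of tobacco smoke, at initiation. The groups were 6 Keap1 wild-type untreated, 6 Keap1 wild-type BAP, 5 Keap1 fl/fl untreated and 5 Keap1 fl/fl BAP tumours. Age and sex of the animals are not stated, nor whether any tumours shared an animal, so p-values measure only the spread between these samples.

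Type I interferons (interferon beta and the interferon alphas) bind a receptor made of IFNAR1 and IFNAR2. The kinases JAK1 and TYK2 at the receptor then start a signal that ends in ISGF3, a complex that holds STAT2 and IRF9. ISGF3 binds the interferon-stimulated response element in the promoters of the genes described here, whose products sense and restrict viral RNA, and in tumours both the cancer cells and infiltrating immune cells can express them.

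Promoter sequence from RefSeq (GRCm38.p6) was at hand for 24 of the 34 genes. Dhx58, Zbp1, Oas2, Mx1, Mx2, Usp18, Parp9, Parp14, Ifi27l2a and Rtp4 had no entry. The core of the response element was searched as a pair of GAAA half-sites with any 2 bases between them, on both strands, in the 250 bases before the gene start. It was found in 9 of the 24 genes (37.5%), against 3.46% of the 27025 genes with a promoter in the same table. The 9 were Stat2, Oas1a, Oas3, Ifit1, Ifit3, Rsad2, Bst2, Trim30a and Isg15. A second motif, TTCNNNGAA, which reads the same on both strands, was in 4 of the 24 (16.7%; Oas1a, Ifit2, Bst2 and Eif2ak2) against 8.13% of all genes, and the 2 motifs can overlap. A match describes letters and is not evidence of binding. The 4 genes with a match whose values are also given library by library are shown, since Trim30a rose with Keap1 fl/fl in BAP tumours with or without 1 high library, while Isg15, Ifit1 and Ifit3 passed with it and not without it. Each sequence is the 250 bases before the RefSeq start, 5′ to 3′ on the strand of the gene, and capitals mark this pair or its reverse complement.
Isg15, chr4:156200819-156201068, minus strand: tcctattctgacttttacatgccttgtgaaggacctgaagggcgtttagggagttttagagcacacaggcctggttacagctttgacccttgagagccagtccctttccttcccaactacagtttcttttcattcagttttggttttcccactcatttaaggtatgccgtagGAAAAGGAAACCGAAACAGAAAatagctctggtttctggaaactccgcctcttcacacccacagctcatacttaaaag
Ifit1, chr19:34640639-34640888, plus strand: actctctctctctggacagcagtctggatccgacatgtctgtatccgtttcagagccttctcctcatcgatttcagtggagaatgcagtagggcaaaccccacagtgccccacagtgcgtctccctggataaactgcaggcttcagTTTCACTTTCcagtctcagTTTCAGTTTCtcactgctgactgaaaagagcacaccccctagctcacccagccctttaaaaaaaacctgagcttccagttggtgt
Ifit3, chr19:34583279-34583528, plus strand: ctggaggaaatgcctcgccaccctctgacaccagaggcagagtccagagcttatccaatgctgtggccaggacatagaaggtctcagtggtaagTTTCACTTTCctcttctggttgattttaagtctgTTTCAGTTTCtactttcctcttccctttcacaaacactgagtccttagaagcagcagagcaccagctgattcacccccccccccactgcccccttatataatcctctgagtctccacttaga
Trim30a, chr7:104465194-104465443, minus strand: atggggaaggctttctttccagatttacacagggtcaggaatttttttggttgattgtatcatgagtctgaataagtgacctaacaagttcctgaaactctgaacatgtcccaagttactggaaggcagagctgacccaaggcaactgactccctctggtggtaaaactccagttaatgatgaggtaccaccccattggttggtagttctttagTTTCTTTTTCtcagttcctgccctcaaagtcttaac
Isg15 has 3 overlapping matches that begin between 78 and 66 bases before the start. Ifit1 and Ifit3 have 2 each, beginning 104 and 85, and 156 and 122, bases before it. Trim30a has 1, beginning 36 bases before it.

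Total counts ranged from 29235010 to 39862777 per library. Levels are given in CPM, the counts of a gene per 1e6 counts of the library after the TMM scaling of edgeR. The targeted gene Keap1 averaged 57.1 ± 12.1 CPM (SD, n = 6) in Keap1 wild-type untreated, 58.1 ± 4.22 CPM (SD, n = 6) in Keap1 wild-type BAP, 28.9 ± 5.96 CPM (SD, n = 5) in Keap1 fl/fl untreated and 30.4 ± 21.9 CPM (SD, n = 5) in Keap1 fl/fl BAP tumours. The library labelled Keap1 fl/fl BAP 2 held 65.6 CPM, within the range of the wild-type libraries, and it is called by its label throughout; gene-level counts take in exons outside any deleted part. Trp53, floxed in all groups, ranged over group means from 10.1 CPM in Keap1 wild-type BAP to 36.6 CPM in Keap1 fl/fl BAP tumours, where Keap1 fl/fl BAP 3 held 110.3 CPM. Basal keratinocyte markers, the identity expected of a squamous carcinoma, were low in some libraries: summed over 9 genes they reached 26717 to 62746 CPM in Keap1 wild-type BAP tumours but 81.1 to 1649 CPM in Keap1 fl/fl BAP tumours. Keap1 wild-type untreated 6 stood apart from its group, with 1153 CPM against 18578 to 47450 CPM in the other 5 libraries. In bulk tumour RNA, fewer cells of a type and less RNA per cell cannot be told apart.

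The interferon response genes were high together in 2 libraries that belong to different groups. Keap1 wild-type untreated 6 was the highest of the 22 libraries for 21 of the 34 genes and second for the other 13. Keap1 fl/fl BAP 1 was highest for 12 and second for 21. For 33 of the 34 genes these 2 libraries were the 2 highest, against 2.29% of the 19202 genes tested. The exception was Irf9, where Keap1 wild-type untreated 5 was highest. As these 2 libraries are set apart because of such genes, the count is a description and no test. The level of each gene was also expressed as log2(CPM + 0.5) minus the gene's median over the 22 libraries. The median of this relative level over the 34 genes was 3.46 in Keap1 wild-type untreated 6 and 3.30 in Keap1 fl/fl BAP 1, and the other 20 libraries lay between -0.99 and 1.94. The same median over all 19202 genes stayed within -0.058 and 0.022 in each library.

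A middle tier followed. Keap1 wild-type untreated 5 had a median relative level of 1.94 and Keap1 fl/fl untreated 4 had 1.63, and they took rank 3 or 4 of the 22 libraries for 26 and 24 of the genes. Keap1 fl/fl untreated 3 lay at 0.80 and Keap1 fl/fl BAP 5 at 0.49. The lowest values were -0.83 and -0.99, in Keap1 wild-type BAP 4 and 5. Keap1 wild-type BAP 5 was the lowest library for 15 of the 34 genes. All 6 Keap1 wild-type BAP libraries were below 0, between -0.99 and -0.21. Among the 5 Keap1 fl/fl BAP libraries, those other than the first lay between -0.17 and 0.49.

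**Figure D1:**
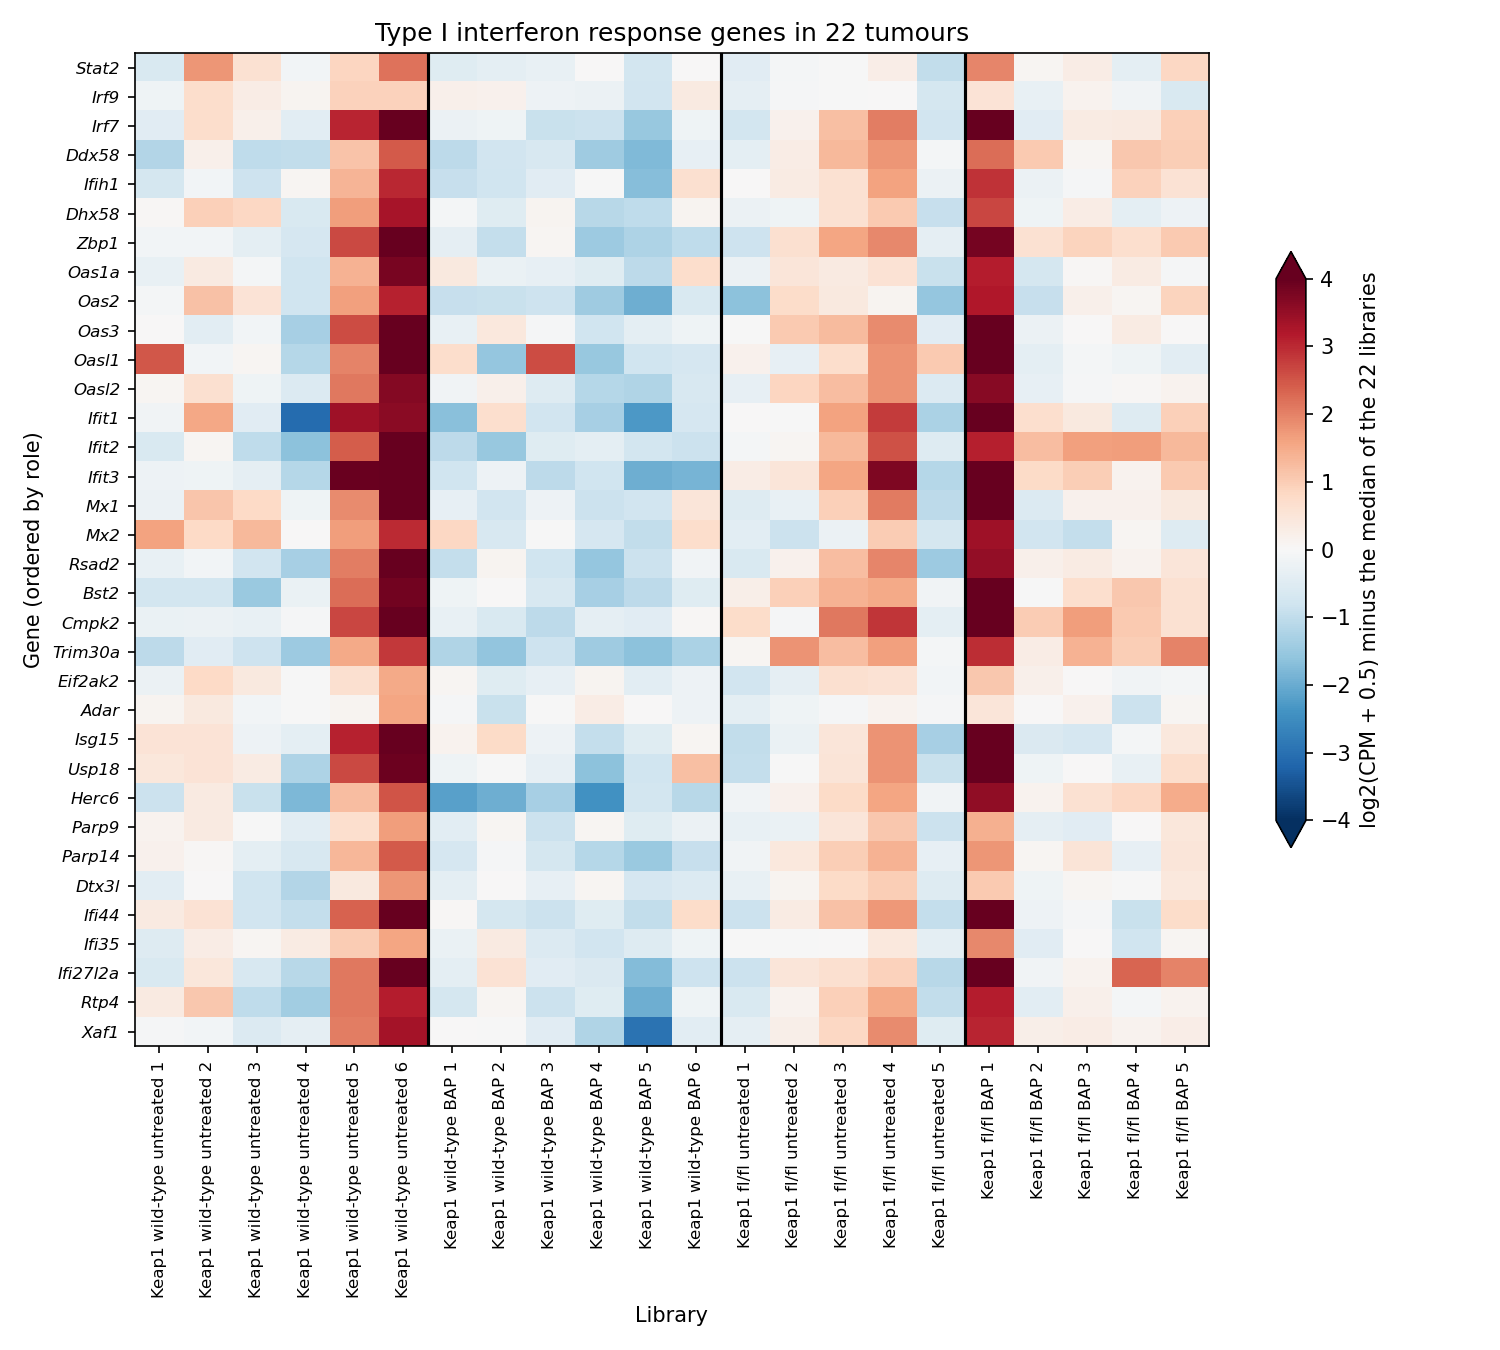
Relative level of the 34 interferon response genes (rows, by role) in the 22 libraries (columns, split by group with black lines), as log2(CPM + 0.5) minus the median of the gene over all libraries; colours are capped at 4 in both directions. Keap1 wild-type untreated 6 and Keap1 fl/fl BAP 1 are red in nearly every row, with medians of 3.46 and 3.30, while the 6 Keap1 wild-type BAP libraries have medians below 0.

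The genes differed in how far they rose in these libraries. Compared per kilobase of the deposited gene length, the genes with the highest median over the 22 libraries were Bst2 at 22.9 CPM per kilobase, Ifi35 at 16.7 and Isg15 at 10.8. The lowest were Cmpk2 at 0.26 and Oas3 at 0.27 CPM per kilobase. Set against its own median over the 22 libraries, the highest library stood 52.8-fold higher for Ifi27l2a, 49.2-fold for Ifit3 and 41.8-fold for Irf7, but 1.91-fold for Irf9, 2.91-fold for Eif2ak2 and 3.02-fold for Adar.

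Positions in the mouse genome are given for the 11 genes described library by library, on GRCm38 from the GENCODE M21 annotation, and cover the whole gene. Changes between groups are fitted log2 fold changes, written as log2 units.

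Among the signalling genes, Irf7 had the widest range. IRF7 is the transcription factor that drives the interferon alpha genes and is itself induced by interferon. Irf7 (chr7:141262706-141266481, minus strand) ranged from 6.61 to 384 CPM (median 12.96) in Keap1 wild-type untreated tumours and from 2.87 to 8.03 CPM (median 6.21) in Keap1 wild-type BAP tumours. The Keap1 fl/fl untreated libraries, in the order 1 to 5 used throughout, held 5.27, 10.3, 21.9, 39.7 and 5.25 CPM, and the Keap1 fl/fl BAP libraries held 304, 6.57, 11.6, 11.9 and 18.3 CPM. The first of the Keap1 fl/fl BAP libraries was far above the other 4, of which only the library labelled Keap1 fl/fl BAP 2 lay within the Keap1 wild-type BAP range. The change of Irf7 between Keap1 fl/fl and wild type in BAP tumours (from here on the Keap1 effect in BAP tumours) was 3.55 log2 units (SE 1.14, edgeR adjusted p = 0.0176), and without Keap1 fl/fl BAP 1 it was 1.01 log2 units (SE 0.91, edgeR adjusted p = 0.406). Phrf1 overlaps Irf7 on the opposite strand. Stat2 and Irf9 encode parts of ISGF3. Stat2 also had a high value of 65.1 CPM in Keap1 wild-type untreated 2, beside 86.4 CPM in untreated 6 and 74.6 CPM in Keap1 fl/fl BAP 1. Its Keap1 effect in BAP tumours was 1.11 log2 units (SE 0.44, edgeR adjusted p = 0.0493), and 0.57 log2 units (SE 0.41, edgeR adjusted p = 0.288) without that library. Irf9 stayed between 15.0 and 49.0 CPM in all libraries, and its Keap1 effect in BAP tumours was 0.023 log2 units (SE 0.25, edgeR adjusted p = 0.950).

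The nucleic acid sensors included 1 gene whose Keap1 effect did not rest on a single library. Ddx58 encodes RIG-I, a cytosolic sensor of viral RNA ends. Ddx58 (chr4:40203773-40239828, minus strand) ranged from 7.28 to 95.6 CPM (median 14.0) in Keap1 wild-type untreated and from 4.66 to 13.5 CPM (median 8.86) in Keap1 wild-type BAP tumours. The Keap1 fl/fl untreated libraries held 12.7, 20.8, 42.0, 59.0 and 15.9 CPM and the Keap1 fl/fl BAP libraries 81.2, 35.4, 18.0, 36.6 and 33.95 CPM. All 5 Keap1 fl/fl BAP libraries lay above all 6 Keap1 wild-type BAP libraries. For Ddx58 the Keap1 effect in BAP tumours was 2.22 log2 units (SE 0.61, edgeR adjusted p = 0.00731) and, without Keap1 fl/fl BAP 1, 1.82 log2 units (SE 0.62, edgeR adjusted p = 0.0273). Zbp1, a sensor of left-handed nucleic acid that can trigger necroptosis, rose by 3.07 log2 units (SE 0.92, edgeR adjusted p = 0.0125) and had 1.73 log2 units (SE 0.83, edgeR adjusted p = 0.109) without that library, with all 5 Keap1 fl/fl BAP libraries above the Keap1 wild-type BAP libraries. Ifih1, which encodes the long double-stranded RNA sensor MDA5, had 1.79 log2 units (SE 0.72, edgeR adjusted p = 0.0530). Dhx58, which encodes LGP2, a modulator of both RNA sensors, had 1.44 log2 units (SE 0.68, edgeR adjusted p = 0.0948).

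The OAS genes encode synthetases of oligoadenylates that activate RNase L, and relatives of them. Oas2 (chr5:120730333-120749853, minus strand) ranged from 2.89 to 48.8 CPM (median 10.4) in Keap1 wild-type untreated and from 1.03 to 3.32 CPM (median 2.65) in Keap1 wild-type BAP tumours. Oas2 was at 1.40, 9.36, 7.16, 5.78 and 1.5005 CPM in the Keap1 fl/fl untreated libraries and in the Keap1 fl/fl BAP libraries at 54.0, 2.58, 6.21, 5.66 and 10.3 CPM. The library labelled Keap1 fl/fl BAP 2 was below the highest Keap1 wild-type BAP library, so the groups overlapped. The Keap1 effect on Oas2 in BAP tumours was 2.73 log2 units (SE 0.77, edgeR adjusted p = 0.00842), and 1.38 log2 units (SE 0.65, edgeR adjusted p = 0.102) without Keap1 fl/fl BAP 1. Gm43068 overlaps Oas2 on the opposite strand, and whether counting used strand is not given in the sources used here. Oasl2 (2.25 log2 units) and Oas3 (2.77 log2 units) rose in the same comparison, with edgeR adjusted p = 0.0344 and 0.0476, while Oas1a (1.46 log2 units, adjusted p = 0.148) and Oasl1 (1.55 log2 units, adjusted p = 0.297) did not pass. Without Keap1 fl/fl BAP 1 none of the 5 passed edgeR's test, and their values ran from -1.08 log2 units for Oasl1 to 1.38 log2 units for Oas2. Oasl1 is known in mouse to limit translation of Irf7, and its highest value in Keap1 wild-type BAP tumours, 18.4 CPM, was above the 4 Keap1 fl/fl BAP libraries other than the first. Oas1a has a near-identical neighbour, Oas1g, so the split of counts between them is uncertain; Oas1g held 64.8 and 58.0 CPM in the 2 high libraries.

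The IFIT genes lie side by side on chromosome 19 and encode proteins that bind foreign RNA. Ifit3 (chr19:34583531-34588731, plus strand) ranged from 0.926 to 127 CPM (median 2.26) in Keap1 wild-type untreated and from 0.306 to 2.20 CPM (median 1.15) in Keap1 wild-type BAP tumours. The Keap1 fl/fl untreated libraries held 3.32, 3.91, 8.92, 41.2 and 0.931 CPM and the Keap1 fl/fl BAP libraries 129.8, 4.88, 5.68, 2.98 and 5.98 CPM. The 5 Keap1 fl/fl BAP libraries did not overlap the Keap1 wild-type BAP libraries, and the first was 21.7-fold higher than the next. For Ifit3 the Keap1 effect was 4.77 log2 units (SE 1.40, edgeR adjusted p = 0.0107) in BAP tumours and 2.16 log2 units (SE 1.15, edgeR adjusted p = 0.149) without Keap1 fl/fl BAP 1. Ifit1 (chr19:34640871-34650009, plus strand) ranged from 0.0386 to 54.6 CPM (median 8.22) in Keap1 wild-type untreated and from 0.420 to 6.66 CPM (median 1.74) in Keap1 wild-type BAP tumours. It held 4.09, 3.94, 13.2, 30.9 and 1.40 CPM in Keap1 fl/fl untreated and 75.8, 6.72, 5.41, 2.66 and 8.31 CPM in Keap1 fl/fl BAP libraries. Its lowest value, in Keap1 wild-type untreated 4, is below the floor of 3 counts (0.0753 to 0.103 CPM across libraries). The groups overlapped for Ifit1, whose Keap1 effect in BAP tumours was 3.10 log2 units (SE 1.17, edgeR adjusted p = 0.0397), and 1.32 log2 units (SE 1.06, edgeR adjusted p = 0.347) without Keap1 fl/fl BAP 1. Ifit2, of the same family, held 44.7, 11.8, 15.6, 16.2 and 12.2 CPM in the Keap1 fl/fl BAP libraries, all above the Keap1 wild-type BAP range of 1.34 to 3.48 CPM (median 2.49). Its Keap1 effect was 2.999 log2 units (SE 0.89, edgeR adjusted p = 0.0115), and 2.47 log2 units (SE 0.90, edgeR adjusted p = 0.0371) without Keap1 fl/fl BAP 1. Ifit3 has a near-identical copy, Ifit3b, so their split of counts is uncertain. Ifit1 has a relative, Ifit1bl1, whose likeness to it was not measured. Ifit3b held 53.9 and 33.2 CPM in the 2 high libraries, and Ifit1bl1 5.13 and 2.23 CPM.

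Trim30a had the smallest p of the other antiviral effectors. It belongs to the TRIM family of ubiquitin ligases and is known in mouse to restrain Toll-like receptor signalling. Trim30a (chr7:104409025-104465193, minus strand) ranged from 2.70 to 61.6 CPM (median 5.17) in Keap1 wild-type untreated and from 2.29 to 4.46 CPM (median 2.94) in Keap1 wild-type BAP tumours. Trim30a was at 8.65, 29.9, 20.2, 26.5 and 7.86 CPM in the Keap1 fl/fl untreated libraries, and the Keap1 fl/fl BAP libraries held 67.1, 10.3, 22.6, 16.7 and 33.8 CPM. Every Keap1 fl/fl BAP library was above every Keap1 wild-type BAP library. The Keap1 effect on Trim30a in BAP tumours was 3.29 log2 units (SE 0.72, edgeR adjusted p = 0.00162), and 2.76 log2 units (SE 0.70, edgeR adjusted p = 0.00573) without Keap1 fl/fl BAP 1. It has close paralogues beside it in the genome, so the split of counts between them is uncertain.

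Mx1, a dynamin-like GTPase that blocks viral replication, was low outside a few libraries. Mx1 (chr16:97447035-97462907, minus strand) ranged from 2.42 to 71.0 CPM (median 6.27) in Keap1 wild-type untreated and from 1.41 to 4.33 CPM (median 1.90) in Keap1 wild-type BAP tumours. It held 1.92, 2.31, 6.15, 14.2 and 1.19 CPM in Keap1 fl/fl untreated and 58.2, 1.84, 3.36, 3.38 and 4.04 CPM in Keap1 fl/fl BAP libraries. Apart from the first, the Keap1 fl/fl BAP libraries lay inside the Keap1 wild-type BAP range. In BAP tumours the Keap1 effect on Mx1 was 2.64 log2 units (SE 0.98, edgeR adjusted p = 0.0377), and 0.48 log2 units (SE 0.82, edgeR adjusted p = 0.674) without Keap1 fl/fl BAP 1. Cmpk2, a mitochondrial nucleotide kinase, rose by 3.62 log2 units (adjusted p = 0.0125), and Bst2, which tethers budding virus to the cell, by 2.80 log2 units (adjusted p = 0.0172). Without Keap1 fl/fl BAP 1 they had 2.12 log2 units (adjusted p = 0.0971) and 1.21 log2 units (adjusted p = 0.228). Rsad2, which encodes viperin, had 2.61 log2 units (adjusted p = 0.0512) and Mx2 had 1.51 log2 units (adjusted p = 0.128). Eif2ak2, which encodes the RNA-activated kinase PKR, and Adar, the editor of double-stranded RNA that keeps MDA5 quiet, had 0.50 log2 units and 0.15 log2 units, with adjusted p = 0.220 and 0.713.

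The ISG15 system attaches the ubiquitin-like protein ISG15 to other proteins. Isg15 (chr4:156199424-156200818, minus strand) ranged from 5.71 to 134 CPM (median 11.3) in Keap1 wild-type untreated and from 3.63 to 13.1 CPM (median 7.27) in Keap1 wild-type BAP tumours. It held 3.60, 6.22, 10.8, 27.3 and 2.72 CPM in Keap1 fl/fl untreated and 198, 4.95, 4.52, 7.11 and 10.2 CPM in Keap1 fl/fl BAP libraries. Only the first Keap1 fl/fl BAP library was above the Keap1 wild-type BAP range, and the other 4 lay inside it. The Keap1 effect on Isg15 was 2.58 log2 units (SE 1.02, edgeR adjusted p = 0.0488), and without Keap1 fl/fl BAP 1 its sign turned, to -0.17 log2 units (SE 0.79, edgeR adjusted p = 0.888). Herc6 (chr6:57581000-57664632, plus strand), known as the main ISG15 ligase of the mouse, ranged from 0.695 to 23.3 CPM (median 3.26) in Keap1 wild-type untreated and from 0.259 to 1.95 CPM (median 0.857) in Keap1 wild-type BAP tumours. The Keap1 fl/fl untreated libraries held 3.23, 4.18, 6.54, 11.8 and 3.23 CPM and the Keap1 fl/fl BAP libraries 47.2, 3.99, 5.76, 6.84 and 10.9 CPM. All 5 Keap1 fl/fl BAP libraries were above all Keap1 wild-type BAP libraries. For Herc6 the Keap1 effect was 3.96 log2 units (SE 0.86, edgeR adjusted p = 0.00151), and 2.84 log2 units (SE 0.76, edgeR adjusted p = 0.00760) without Keap1 fl/fl BAP 1. Usp18, which removes ISG15 and dampens signalling at IFNAR2, had 2.61 log2 units (SE 1.04, edgeR adjusted p = 0.0516), and 0.19 log2 units (SE 0.87, edgeR adjusted p = 0.881) without that library.

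Parp14 belongs to the interferon-induced ADP-ribosyltransferases, and Parp9 and Dtx3l encode partners in a complex of an ADP-ribosyltransferase and a ubiquitin ligase. Parp14 (chr16:35832874-35871544, minus strand) ranged from 10.7 to 94.6 CPM (median 18.4) in Keap1 wild-type untreated and from 5.73 to 16.5 CPM (median 9.57) in Keap1 wild-type BAP tumours. It held 15.5, 23.1, 34.3, 45.9 and 13.3 CPM in Keap1 fl/fl untreated and 59.5, 18.0, 24.5, 13.4 and 24.2 CPM in Keap1 fl/fl BAP libraries. Keap1 fl/fl BAP 4 was below the highest Keap1 wild-type BAP library, so the groups overlapped. The Keap1 effect on Parp14 was 1.49 log2 units (SE 0.52, edgeR adjusted p = 0.0262) in BAP tumours, and 1.02 log2 units (SE 0.51, edgeR adjusted p = 0.122) without Keap1 fl/fl BAP 1. Parp9 (0.68 log2 units, edgeR adjusted p = 0.185) and Dtx3l (0.65 log2 units, adjusted p = 0.236) did not pass; these neighbours overlap on opposite strands.

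Ifi27l2a, a small interferon-induced membrane protein gene, had the highest peak against its own median. Ifi27l2a (chr12:103442167-103443680, minus strand) ranged from 1.78 to 103 CPM (median 4.51) in Keap1 wild-type untreated and from 0.993 to 6.82 CPM (median 2.97) in Keap1 wild-type BAP tumours. It held 2.20, 6.46, 7.21, 8.81 and 1.79 CPM in Keap1 fl/fl untreated and 234, 3.94, 4.93, 24.1 and 19.0 CPM in Keap1 fl/fl BAP libraries. Besides the first, Keap1 fl/fl BAP 4 and 5 were above the Keap1 wild-type BAP range, while 2 and 3 were inside it. In BAP tumours the Keap1 effect on Ifi27l2a was 4.15 log2 units (SE 1.13, edgeR adjusted p = 0.00684), and 2.01 log2 units (SE 0.93, edgeR adjusted p = 0.0957) without Keap1 fl/fl BAP 1. Ifi44 and Xaf1, an antagonist of the apoptosis inhibitor XIAP, rose by 3.20 log2 units and 2.01 log2 units (adjusted p = 0.0321 and 0.0456), against 0.33 log2 units and 0.85 log2 units without that library (adjusted p = 0.807 and 0.372). Ifi35 (0.80 log2 units, adjusted p = 0.132) and Rtp4, a chaperone of receptor transport (1.99 log2 units, adjusted p = 0.0518), did not pass.

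**Figure D2:**
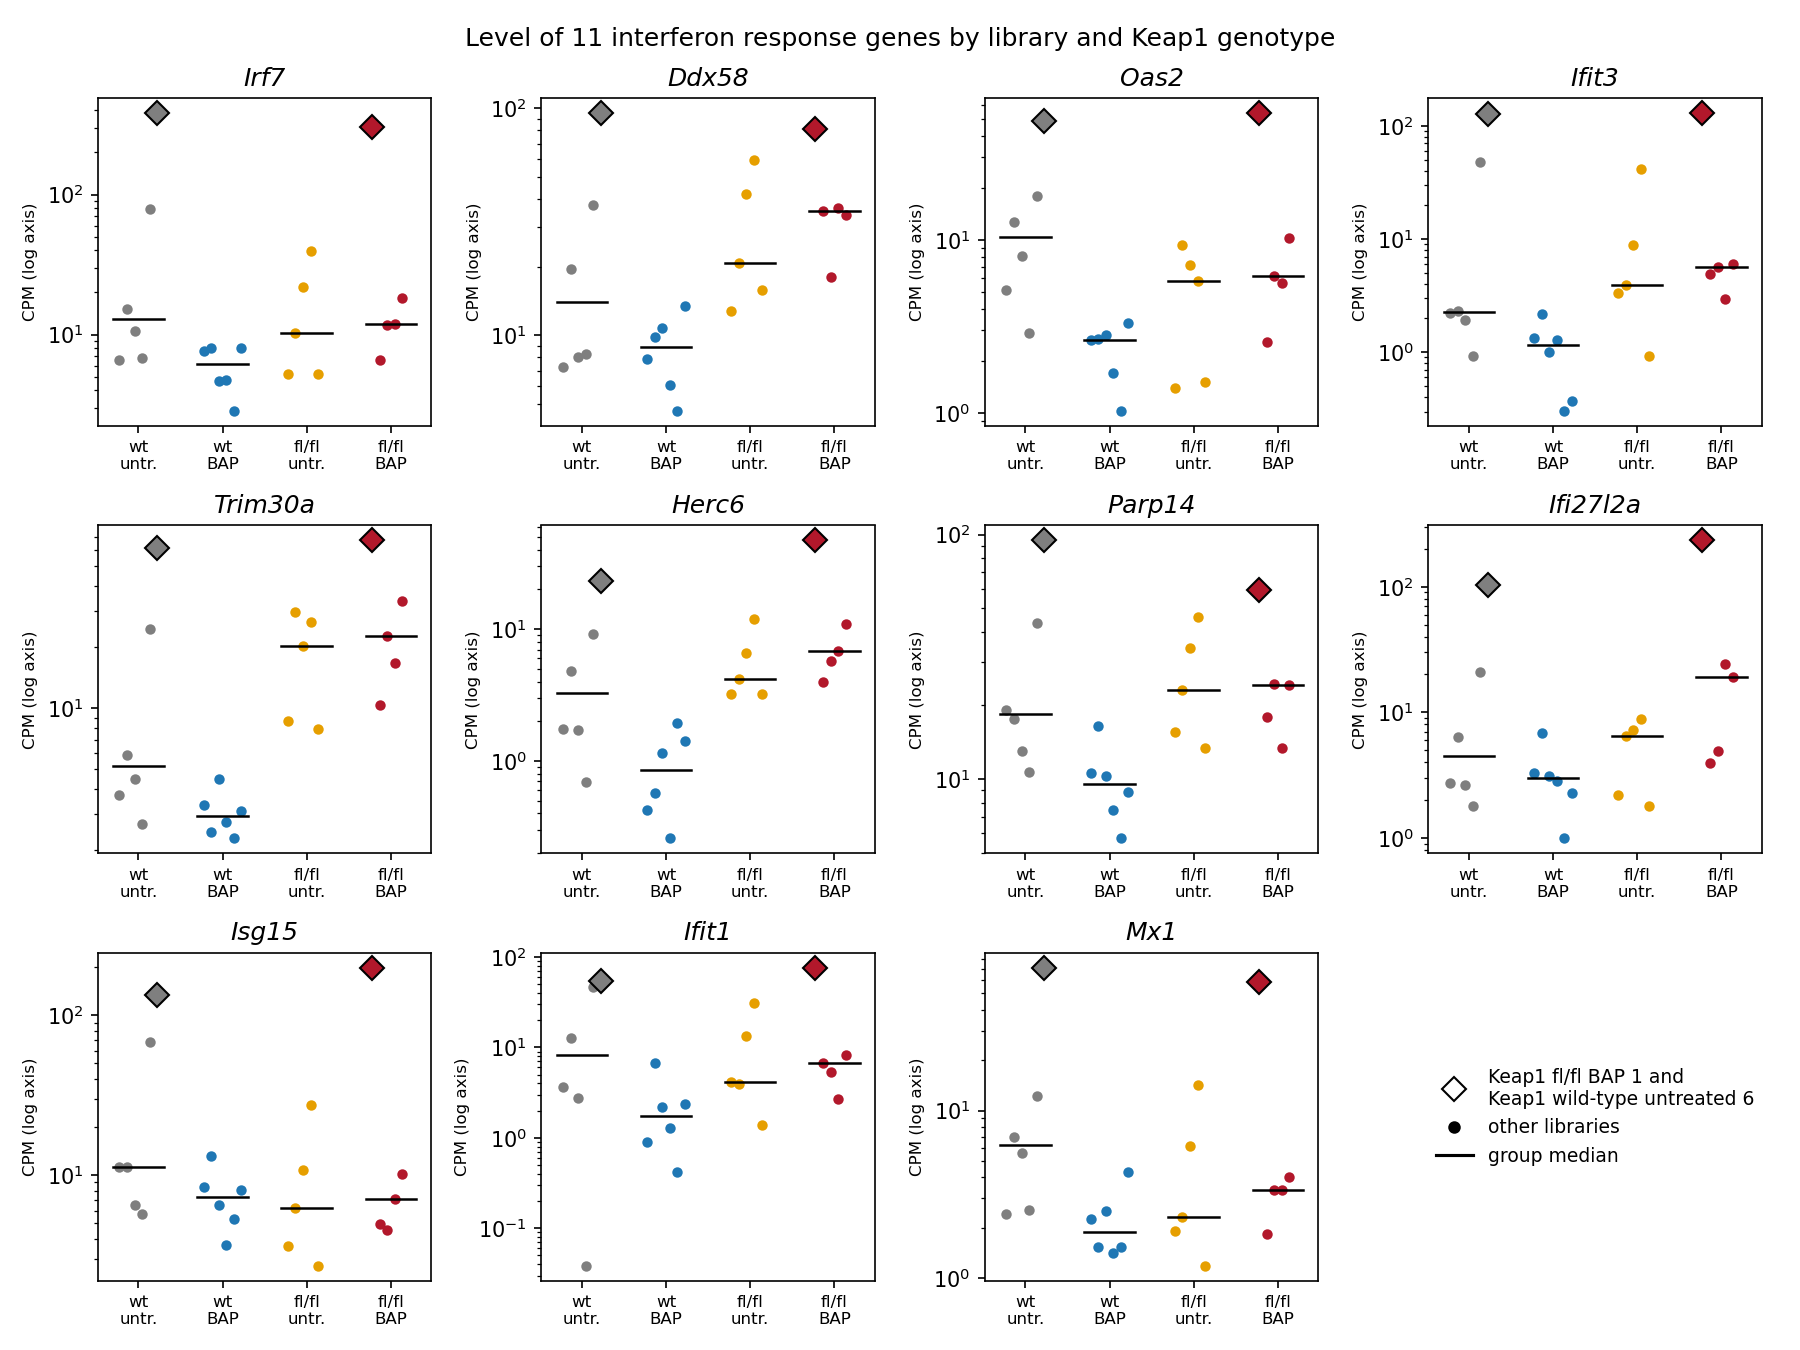
Level in CPM (log axis) of the 11 genes described library by library, by group, with circles for libraries, diamonds for Keap1 fl/fl BAP 1 and Keap1 wild-type untreated 6, and a line at the group median. The diamonds are the 2 highest points of each panel, and in the Ddx58, Trim30a, Herc6 and Ifit3 panels the remaining Keap1 fl/fl BAP circles also lie above the Keap1 wild-type BAP circles.

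Across all 34 genes, the Keap1 effect in BAP tumours was above 0 for each gene, with a median log2 fold change of 2.41 against -0.0012 over all genes tested. Of the 34, 20 rose and 0 fell at an edgeR adjusted p under 0.05. Of all 19202 genes, 20.3% were called higher and 20.0% lower in this comparison, so 50.3% of the calls were higher. With library totals in place of TMM, 29 of the 34 rose, against 6051 of all 19202 genes called higher and 2193 lower. With that scaling 73.4% of the calls were higher, and the median of all genes moved up by 0.45 log2 units. Without Keap1 fl/fl BAP 1 the median was 0.57, and 4 genes rose: Trim30a, Herc6, Ddx58 and Ifit2, against 18.4% of all genes called higher and 17.9% lower. The 4 of 34 is then a smaller share than that of all genes. Leaving out Keap1 wild-type untreated 6 as well, which adds to the estimate of spread but not to this contrast, 8 genes rose: the same 4 with Ifi27l2a, Cmpk2, Zbp1 and Parp14, and 20.3% of all genes were called higher and 19.7% lower. Trim30a, Herc6, Ddx58 and Ifit2 passed in each of the 11 fits that left out 1 library of either BAP group. Irf7, Zbp1, Cmpk2, Oas2, Bst2, Ifit3 and Ifi27l2a failed in 1 of the 11, the fit without Keap1 fl/fl BAP 1. Leaving out Keap1 wild-type BAP 3, 4 or 5 took the count of rising genes from 20 to 12, 11 and 11, and leaving out 1 of the libraries labelled Keap1 fl/fl BAP 2 to 5 gave 21 to 24. Among the 11 fits, the share of all genes called was counted only for that without Keap1 fl/fl BAP 1. In the others, a change or a lack of change of the 34 genes has no background beside it.

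Counted without a model, 9 of the 34 genes had all 5 Keap1 fl/fl BAP libraries above all 6 Keap1 wild-type BAP libraries: Ddx58, Zbp1, Ifit2, Ifit3, Rsad2, Cmpk2, Trim30a, Herc6 and Xaf1. The groups did not overlap in this direction for 13.8% of all genes tested. Leaving out Keap1 fl/fl BAP 1, the same 9 genes remained, against 15.6% of all genes. Of the 34, 0 had all Keap1 fl/fl BAP libraries below, against 13.7% of all genes, or 15.4% without that library. In untreated tumours 0 of the 34 had groups that did not overlap, in either direction, against 1.23% of all genes higher and 0.708% lower, and this stayed at 0 without Keap1 wild-type untreated 6, against 4.91% and 3.29%.

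**Figure D3:**
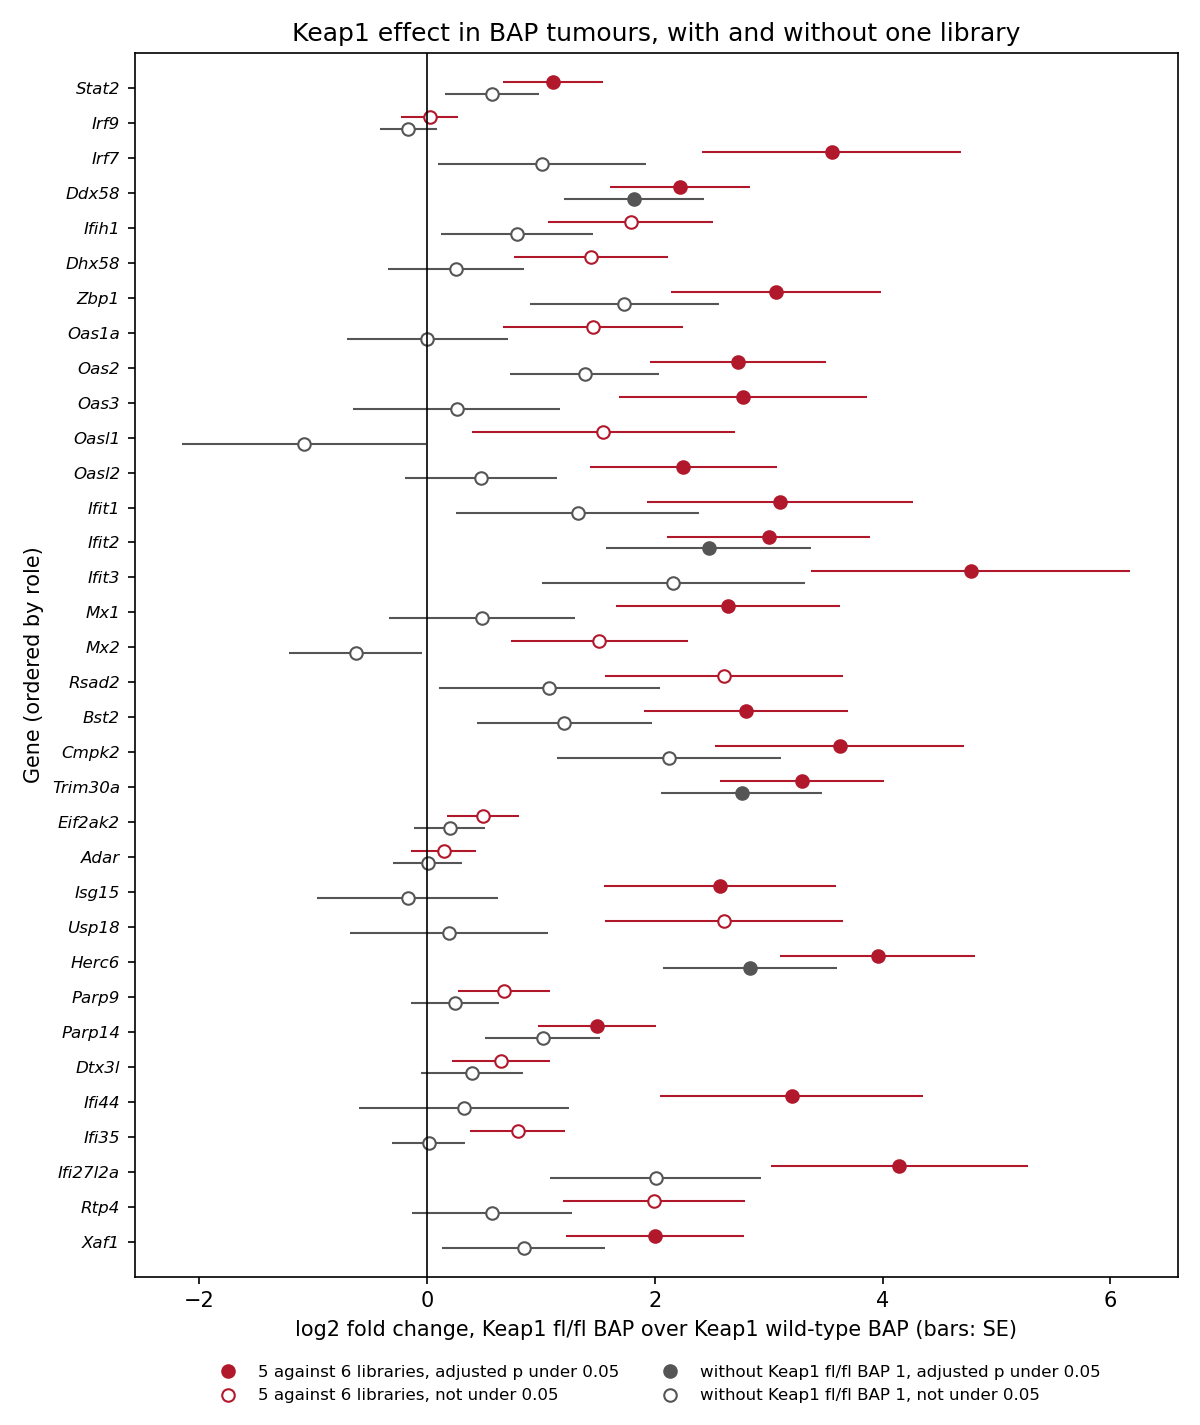
Log2 fold change of each gene between Keap1 fl/fl BAP and Keap1 wild-type BAP tumours with its SE from edgeR, using all 5 against 6 libraries (red) and without Keap1 fl/fl BAP 1 (grey); filled circles have an adjusted p under 0.05. All 34 red values are above 0 and 20 are filled, while 4 grey values are filled and 4 are below 0.

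In untreated tumours, the Keap1 effect on the 34 genes had a median log2 fold change of -1.02, against -0.051 over all genes, and 31 of the 34 were below 0. Of the 34, 0 rose and 0 fell by edgeR, with 5 at an unadjusted p under 0.05, as were 3382 of all 19202 genes. DESeq2 also called 0 of the 34, against 944 of all 19202 genes in either direction. With sample weights, limma-voom called 1 of the 34 as falling, against 1870 of all genes in either direction. By edgeR, 0.214% of all genes were called higher and 0.0781% lower. Without Keap1 wild-type untreated 6, the median was -0.20, 15 of the 34 genes were above 0 and 0 passed, while 8.64% of all genes were called higher and 5.74% lower. Leaving out both high libraries, 0 passed again, against 8.38% of all genes called higher and 5.37% lower. Leaving out Keap1 wild-type untreated 6 alone, the fold change of Irf7 went from -2.34 log2 units to -0.52 log2 units and that of Ifi27l2a from -2.11 log2 units to -0.38 log2 units. Trim30a had 0.12 log2 units with all libraries and 1.17 log2 units without that one (adjusted p = 0.941 and 0.168).

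Between BAP and untreated tumours, 0 of the 34 genes passed in either Keap1 genotype by edgeR. In Keap1 wild-type tumours all 34 values were below 0, with a median of -2.36, and 32 had an unadjusted p under 0.05. Here 0.0% of all genes passed in either direction, and 2622 of them had an unadjusted p under 0.05. DESeq2 called 21 of the 34 as falling, against 892 of all 19202 genes in either direction, while limma-voom called 0 of the 34 and 0 of all genes. Leaving out Keap1 wild-type untreated 6, the median was -1.26, with 33 of the 34 still below 0 and 12 at an unadjusted p under 0.05. In that fit 0.0% of all genes passed in either direction. The number of all genes at an unadjusted p under 0.05 is not given here for it. In Keap1 fl/fl tumours all 34 values were above 0, with a median of 1.01, and 2 of them had an unadjusted p under 0.05, as did 3901 of all 19202 genes. Of all genes 0.943% were called higher and 5.16% lower. DESeq2 called 1 of the 34 as rising in that comparison, against 2112 of all genes in either direction, and limma-voom called 0, against 3205. Leaving out Keap1 fl/fl BAP 1, the median turned to -0.33, and 26 of the 34 were below 0, with 0.368% of all genes called higher and 1.62% lower. Leaving out both high libraries gave the same median, with 1.23% of all genes called higher and 5.73% lower. These comparisons share groups with those of Keap1, so their values are not independent of them.

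The difference between the Keap1 effects in BAP and untreated tumours (the interaction) was above 0 for all 34 genes, with a median of 3.42 against 0.099 over all genes. By edgeR 6 genes passed, all upward: Oas2 (4.39 log2 units, SE 1.09, adjusted p = 0.0301), Ifi27l2a (6.26 log2 units, SE 1.58, adjusted p = 0.0309), Stat2 (2.42 log2 units, SE 0.63, adjusted p = 0.0330), Herc6 (4.21 log2 units, SE 1.15, adjusted p = 0.0376), Irf7 (5.90 log2 units, SE 1.62, adjusted p = 0.0376) and Zbp1 (4.31 log2 units, SE 1.29, adjusted p = 0.0482). Of all genes, 2.47% were called upward and 4.47% downward. Without Keap1 wild-type untreated 6 there were 3 (Oas2, Stat2 and Ifi27l2a), against 1.63% of all genes upward and 4.57% downward. Without Keap1 fl/fl BAP 1 there were 0, with 11 at an unadjusted p under 0.05 and a median of 1.79, while 0.868% of all genes passed upward and 1.72% downward. The number of all genes at an unadjusted p under 0.05 is not given here for that fit. Leaving out both gave 0 as well, with 5 at an unadjusted p under 0.05, as were 4296 of all 19615 genes, and a median of 0.78, while 1.02% of all genes passed upward and 3.15% downward. The count was 15, 12 and 10 without Keap1 wild-type untreated 1, 3 and 4, and 14 without Keap1 fl/fl untreated 4. It was 3 without Keap1 wild-type untreated 5 or Keap1 wild-type BAP 1 or 3, 2 without Keap1 wild-type BAP 4 or Keap1 fl/fl BAP 5, and 0 without Keap1 fl/fl untreated 1, 2 or 5 or Keap1 fl/fl BAP 4. For these further fits the share of all genes called was not counted. A shift of the 34 genes therefore cannot be told from a shift over all genes. Without both high libraries Oas2 had 2.27 log2 units (SE 0.79, edgeR adjusted p = 0.0966) and Stat2 had 1.51 log2 units (SE 0.51, edgeR adjusted p = 0.0862).

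The ligands were at the limit of detection. None of the 20 interferon genes listed passed the filter on low counts, so none was tested, and 10 of them had 0 counts in all libraries. Ifnb1, which encodes interferon beta, had 14 counts in Keap1 fl/fl BAP 1 and 13 in Keap1 wild-type untreated 6, the libraries with the highest response level. It had 6 in the library labelled Keap1 fl/fl BAP 2, 2 in Keap1 fl/fl untreated 4 and 0 in the other 18 libraries, where 0 counts allow a level of up to the floor of 3 counts. Past those 2 libraries Ifnb1 did not follow the response level: Keap1 wild-type untreated 5, at rank 3 with a median of 1.94, had 0 counts. Ifng, which encodes interferon gamma, had 11 counts in Keap1 fl/fl untreated 4 and 7 in Keap1 fl/fl BAP 1. It had 6 in Keap1 wild-type untreated 5 and 5 in untreated 6, with 5 or fewer in the others. Counts this low do not order the libraries. Of the alpha genes, Ifna13 had 16 counts in Keap1 fl/fl BAP 4 and 0 in all others. The highest count of any of the 20 was 20, for the keratinocyte interferon gene Ifnk in Keap1 wild-type untreated 4.

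Among BAP tumours, the genes of the interferon alpha and beta receptor were higher in all 5 Keap1 fl/fl libraries than in any Keap1 wild-type library. Ifnar1 ranged from 16.6 to 35.3 CPM (median 22.6) in Keap1 wild-type BAP tumours, and the Keap1 fl/fl BAP libraries held 66.6, 115, 85.8, 94.2 and 103 CPM. Ifnar2 ranged from 6.38 to 12.6 CPM (median 8.87) in Keap1 wild-type BAP tumours, and the Keap1 fl/fl BAP libraries held 40.9, 46.6, 37.9, 44.6 and 64.4 CPM. Keap1 fl/fl BAP 1 was not the highest of the 5 for either gene, and for Ifnar1 it was the lowest. Among untreated Keap1 wild-type tumours the library with the high response did stand apart: replicate 6 held 98.2 CPM of Ifnar1 against 12.3 to 32.5 CPM in the other 5, and 53.0 CPM of Ifnar2 against 5.19 to 16.3 CPM. The Keap1 effect in BAP tumours was 1.98 log2 units (SE 0.43, edgeR adjusted p = 0.00150) for Ifnar1 and 2.33 log2 units (SE 0.48, edgeR adjusted p = 0.00118) for Ifnar2. Leaving out Keap1 fl/fl BAP 1, the values were 2.08 log2 units and 2.37 log2 units (adjusted p = 0.00228 and 0.00224). Of the 10 receptor and signalling genes listed, 5 rose (Il10rb, Ifnar2, Ifnar1, Ifngr1 and Ifngr2) and 1 fell, Ifnlr1, the lambda receptor of epithelial cells, at -3.29 log2 units (SE 0.71, edgeR adjusted p = 0.00145). In this comparison 20.3% of all genes were called higher and 20.0% lower.

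Of 15 listed genes that lead to interferon production, 7 rose with Keap1 fl/fl in BAP tumours, including the RNA sensor of endosomes Tlr7 at 5.07 log2 units, the myeloid factors Irf8 at 2.98 log2 units and Irf5 at 1.52 log2 units, and Tmem173, which encodes STING, at 2.36 log2 units (adjusted p = 0.000616, 0.000659, 0.00156 and 0.00263). The adaptor Myd88 (-0.68 log2 units) and the factor Irf3 (-0.65 log2 units) fell (adjusted p = 0.00433 and 0.0233). For 0 of these 15 were Keap1 wild-type untreated 6 and Keap1 fl/fl BAP 1 the 2 highest libraries. The share over all genes tested was 2.29%, so a count of 0 does not set this list apart. Of 6 tested negative regulators, which remove stray nucleic acid or block signalling, 4 fell and 0 rose: Rnaseh2a (-0.77 log2 units), Rnaseh2b (-0.70 log2 units), Rnaseh2c (-0.67 log2 units) and Samhd1 (-0.84 log2 units), with adjusted p = 0.00354, 0.0107, 0.0295 and 0.0453. Trex1, the seventh, had 0 counts in all libraries, and whether its reads were lost in counting was not tested. In the comparison used for both lists, 20.3% of all genes were called higher and 20.0% lower.

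Other interferon-induced genes showed the same 2 high libraries. Of 30 such genes outside the 34, 22 had Keap1 wild-type untreated 6 and Keap1 fl/fl BAP 1 as the 2 highest libraries. The same held for 7 of 14 genes that interferon gamma induces strongly, against 2.29% of all genes tested. As these 2 libraries are set apart because of interferon-induced genes, both counts are a description and no test. In BAP tumours 17 of the 30 rose with Keap1 fl/fl and 0 fell, against 20.3% of all genes called higher and 20.0% lower. Without Keap1 fl/fl BAP 1, 7 of the 30 rose, against 18.4% of all genes. Those with the smallest p were the DNA-binding family members Ifi205 (5.29 log2 units, SE 1.13, adjusted p = 0.00142) and Ifi211 (4.12 log2 units, SE 1.04, adjusted p = 0.00413), Ms4a4c (5.25 log2 units, SE 1.18, adjusted p = 0.00197) and the GTPase gene Ifi47 (3.55 log2 units, SE 0.85, adjusted p = 0.00311), all of which also rose without that library. Against the same 20.3% of all genes higher and 20.0% lower, 6 of the 14 interferon gamma genes rose and 3 fell. Irf1, their first-line transcription factor, held 70.3, 54.7, 55.8, 79.0 and 69.5 CPM in the Keap1 fl/fl BAP libraries against a Keap1 wild-type BAP range of 11.04 to 27.2 CPM (median 18.5). These groups did not overlap, and the Keap1 effect on Irf1 was 1.81 log2 units (SE 0.38, edgeR adjusted p = 0.00122), and 1.79 log2 units (SE 0.41, edgeR adjusted p = 0.00284) without Keap1 fl/fl BAP 1. Gbp2 and Gbp3, GTPases that attack vacuoles of pathogens, rose by 3.02 log2 units and 3.26 log2 units (adjusted p = 0.00994 and 0.00713), while Nlrc5, Tap1 and Cd274 fell.

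Markers of other cell types moved with these results, and their part in them was not tested. Macrophage and monocyte markers, summed over 11 genes, were highest in the 2 libraries with the highest interferon response, at 3892 CPM in Keap1 wild-type untreated 6 and 3854 CPM in Keap1 fl/fl BAP 1. The other 5 Keap1 wild-type untreated libraries held 89.7 to 492 CPM. The other 4 Keap1 fl/fl BAP libraries held 1781 to 3477 CPM, while their median relative level of the interferon genes was between -0.17 and 0.49 against 3.30. All 11 macrophage markers rose with Keap1 fl/fl in BAP tumours, where the Keap1 wild-type sums were 92.4 to 221 CPM, against 20.3% of all genes called higher. Without Keap1 fl/fl BAP 1, 9 rose, against 18.4% of all genes. None of the 11 was at 0 in all libraries. For 6 of the 11 genes one by one, the 2 libraries with the highest interferon response were the 2 highest, against 2.29% of all genes tested. The complement genes C1qa, C1qb and C1qc were among the 6. For Adgre1, Csf1r, Mrc1, Ms4a7 and Ccr2 these libraries were not the 2 highest. In Keap1 fl/fl BAP 1, Adgre1 was the lowest of its group at 40.4 CPM, against 68.0 to 138 CPM in the other 4, and so was Ccr2 at 8.84 CPM, against 13.6 to 102 CPM.

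Natural killer and cytotoxic markers, summed over 6 genes, stood at 56.0 CPM in Keap1 fl/fl BAP 1 and 25.4 CPM in Keap1 wild-type untreated 6, against 0.296 to 5.14 CPM in the other 20 libraries. For 5 of the 6 these were the 2 highest libraries, against 2.29% of all genes tested. The granule protease gene Gzma held 23.4 and 5.41 CPM in them, and the perforin gene Prf1 16.4 and 8.78 CPM. Of the 6, 2 were at 0 in all Keap1 wild-type BAP libraries. T cell markers did not follow, with 3.74 CPM in Keap1 fl/fl BAP 1 and 14.6 CPM in Keap1 wild-type untreated 6 inside the range of the other 20 libraries, 1.60 to 17.7 CPM. Of 5 tested markers of plasmacytoid dendritic cells, which are known for making interferon alpha, Cox6a2 rose and Ly6d, which keratinocytes also express, fell with Keap1 fl/fl in BAP tumours. For 0 of the 5 were Keap1 fl/fl BAP 1 and Keap1 wild-type untreated 6 the 2 highest libraries. The share over all genes tested was 2.29%, so a count of 0 does not set these markers apart. Siglech held 0.302 CPM in Keap1 fl/fl BAP 1, 1.37 CPM in Keap1 wild-type untreated 6 and 1.77 CPM in Keap1 fl/fl untreated 4. Cox6a2 held 16.99 CPM in Keap1 fl/fl BAP 1 and 1.76 CPM in Keap1 wild-type untreated 6, and Keap1 fl/fl untreated 4 was higher, at 21.1 CPM. Skeletal muscle markers, summed over 7 genes, were likewise highest in Keap1 fl/fl untreated 4, at 1278.5 CPM. They held 975 CPM in Keap1 fl/fl BAP 1 and 128 CPM in Keap1 wild-type untreated 6. The part of muscle in the Cox6a2 values was not tested. The 9 basal keratinocyte markers all fell with Keap1 fl/fl in BAP tumours, with and without Keap1 fl/fl BAP 1, and the 6 fibroblast markers all rose. With all libraries, 20.0% of all genes were called lower and 20.3% higher in this comparison. Mitochondrial reads were 1.46% of counts in Keap1 wild-type untreated 6 and 4.13% in Keap1 fl/fl BAP 1, within the range of 1.16% to 10.7% of all libraries.

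**Figure D4:**
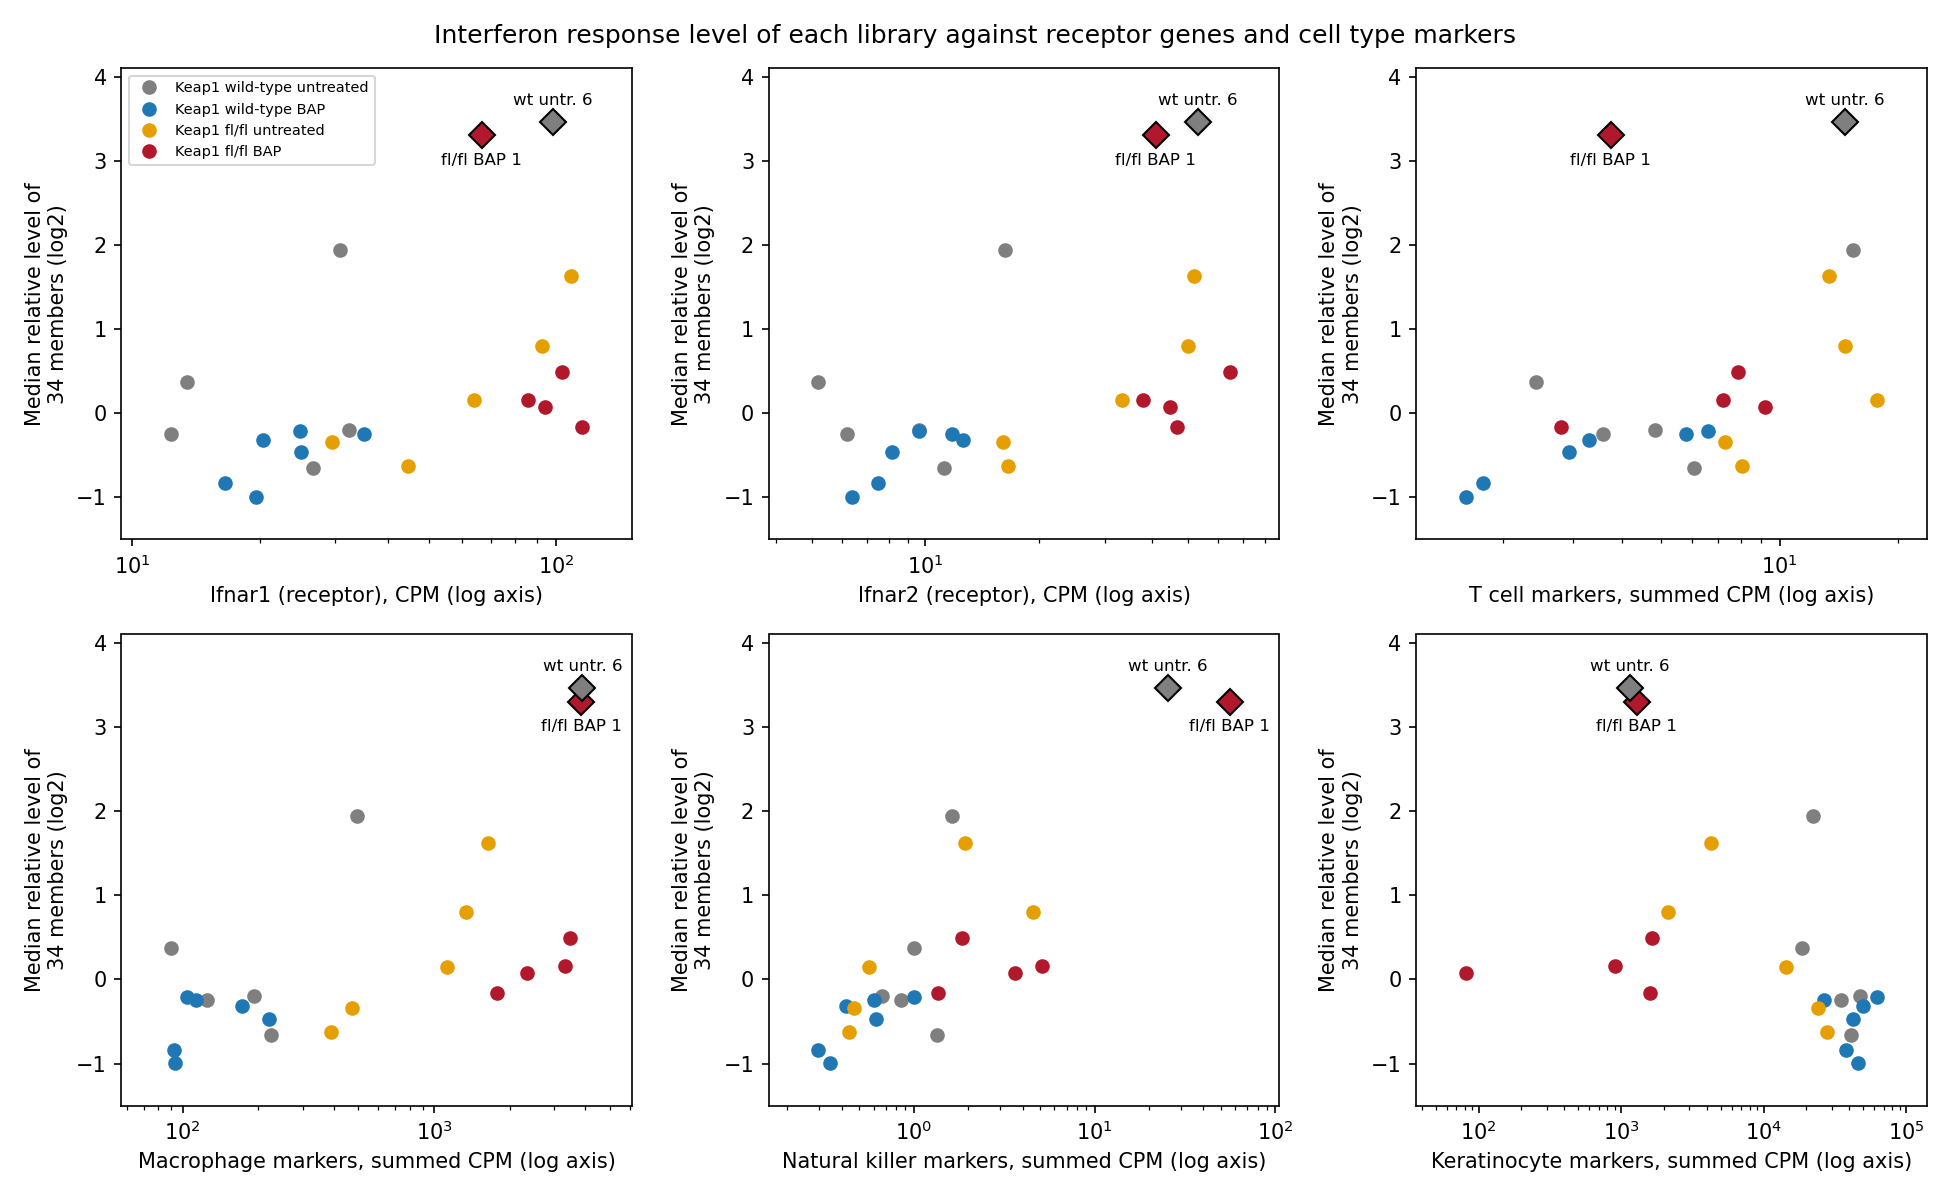
Median relative level of the 34 interferon response genes in each library (y axis, log2) against the level of Ifnar1 and Ifnar2 (CPM, log axis) and the summed CPM of T cell, macrophage, natural killer and basal keratinocyte markers (log axis), coloured by group, with diamonds for the 2 high libraries. Both diamonds lie at the right edge for the macrophage and natural killer sums, while the other Keap1 fl/fl BAP libraries share high receptor and macrophage values with medians between -0.17 and 0.49.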

How the data were processed

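The submitters sequenced RNA of 22 tumours with paired-end reads, per the labels' protocols. The deposited expected counts, which the authors made with RSEM per the file names, were whole numbers (tolerance 1e-09) for 56748 gene IDs; version, aligner, build, annotation and strand setting are not stated there. Symbols and positions came from GENCODE M21 (52073 IDs, 99.39% of counts). A chi-square check of all 231 library pairs found no duplicates (lowest value per degree of freedom 96.5). Counts were fitted with edgeR 4.0.16 in R 4.3.3 (TMM, filterByExpr with a minimum count of 10, robust quasi-likelihood test, 1 term per group over all 22 libraries), with Benjamini-Hochberg adjustment over 19202 genes and a threshold of 0.05. The fit was also run on simulated counts in which some genes changed alike in all Keap1 fl/fl BAP libraries. No single library was set high there, so that run does not bear on results that turn on 1 library. DESeq2 1.42.0 and limma 3.58.1 (voom) were alternatives. Values by library are given for 11 genes: in each of 8 roles the gene with the smallest p for the Keap1 effect in BAP tumours, and Isg15, Ifit1 and Mx1. Of other lists, Ifnb1, Ifnar1, Ifnar2, Irf1 and up to 4 genes with the smallest passing p are named; further ones were chosen after their values were seen. The members and lists were chosen with earlier results of these data known. Floors (3 counts) cover counting error only. 1 gene of these lists is not reported here.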

Additional observations from a re-analysis of the deposited data

Results flagged for a closer look

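Of 48 gene and group combinations examined for a library far from the rest of its group by Dixon's criterion, 19 were marked. The criterion marks about 1 in 20 groups by chance only if values are normally distributed, which was not checked for CPM. The genes marked share libraries, and the 2 high libraries are set apart because of such genes, so the count is a description and no test. In Keap1 wild-type untreated tumours the library was Keap1 wild-type untreated 6 in all 7 cases: Irf7 at 384 CPM, Ddx58 at 95.6 CPM, Oas2 at 48.8 CPM, Ifit3 at 127 CPM, Trim30a at 61.6 CPM, Ifi27l2a at 103 CPM and Mx1 at 71.0 CPM. In Keap1 fl/fl BAP tumours it was Keap1 fl/fl BAP 1 in all 10 cases. These were Irf7 at 304 CPM, Oas2 at 54.0 CPM, Ifit3 at 130 CPM, Herc6 at 47.2 CPM, Parp14 at 59.5 CPM, Ifi27l2a at 234 CPM, Isg15 at 198 CPM, Ifit1 at 75.8 CPM, Mx1 at 58.2 CPM and the median relative level of the 34 genes at 3.30 on the log2 scale. The remaining cases were Ifit3 at 41.2 CPM in Keap1 fl/fl untreated 4 and Ifit1 at 6.66 CPM in Keap1 wild-type BAP 2.

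The Keap1 effect differed between BAP and untreated tumours by edgeR's interaction term for 4 of the 11 genes described: Irf7 by 5.90, Herc6 by 4.21, Oas2 by 4.39 and Ifi27l2a by 6.26 log2 units. That term was called upward for 2.47% and downward for 4.47% of all genes. The 4 were picked for the smallest p of the Keap1 effect in BAP tumours, a part of this term, so the count is a description and no test. None of the 4 passed without Keap1 fl/fl BAP 1, and Oas2 and Ifi27l2a passed without Keap1 wild-type untreated 6. The part of the cell types whose markers are high in these libraries was not tested.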

How the results depend on the processing

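For the Keap1 effect in BAP tumours, the count of rising genes (20) was 12 with limma-voom, 12 with no low-count filter and 8 without both high libraries. It was 22 to 29 under the other 6 alternatives. Among 19202 genes this effect had 7746 calls in either direction, and 9002 with limma-voom. It had 7017 among 35543 genes with no filter and 7836 among 19615 without both. The other 6 alternatives gave 7375 to 8645 calls, with 15778 to 19202 genes tested. Leaving out 1 library of the BAP groups gave 4 to 24 rising genes. The 4 came without Keap1 fl/fl BAP 1, where 18.4% of all genes were called higher, and for the other fits that share was not counted. For the interaction, the count (6) was 15 with library totals, 25 with the DESeq2 test, 27 with titles ending in R as a covariate, and 0 with limma-voom, with no filter and without both libraries. Over all genes the interaction had 1333 calls, 1772 with library totals, 3008 with the DESeq2 test, 3021 with the covariate, 1642 with limma-voom, 111 with no filter and 819 without both. Leaving out 1 library gave 0 to 15, and the share of all genes called was not counted for most of these fits. The genes with a fall under Keap1 fl/fl in untreated tumours were 1 with limma-voom, those with a fall under BAP in Keap1 wild-type tumours were 21 with the DESeq2 test, and those with a rise under BAP in Keap1 fl/fl tumours were 1 with the DESeq2 test and 1 with the covariate; each was 0 by edgeR. Without Keap1 fl/fl BAP 1, alone or with Keap1 wild-type untreated 6, Isg15 turned to -0.17 log2 units in BAP tumours and the median BAP effect in Keap1 fl/fl tumours to -0.33. Leaving out 1 library at a time, that Isg15 value ran from -0.17 to 2.87 and that median from -0.33 to 1.54. Causes were not tested. Scaling by library totals moved the median of all genes by 0.45 log2 units for the Keap1 effect in BAP tumours and 0.33 for the interaction. With that scaling 73.4% of all genes called in the former were higher, against 50.3%, 62.2% against 35.6% in the latter, 88.1% against 73.2% for the Keap1 effect in untreated tumours and 26.7% against 15.4% for the BAP effect in Keap1 fl/fl tumours. Over all genes, the Keap1 effect in untreated tumours had 56 calls, 944 with the DESeq2 test, 1870 with limma-voom and 2697 without both libraries. No paired analysis was possible because replicate numbers follow accession order only.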
